A study of Rattus norvegicus with 27 samples.

Results

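The striatum of streptozotocin-treated rats was compared with the striatum of Wistar controls on 6 of the 27 arrays of the study, chosen by their titles: 3 arrays of streptozotocin-treated rats and 3 of controls. The streptozotocin-treated animals were male Wistar rats injected intravenously with 65 mg/kg streptozotocin at 6 weeks of age, kept if their plasma glucose passed 15 mmol/L, and killed 4 weeks later at 10 weeks of age. Their average blood sugar is given as 26.34 mmol/L. The controls were male Wistar rats of 10 weeks without diabetes, with an average blood sugar of 7.64 mmol/L, and whether they received the solvent is not given in the sources used here. The spread between pools was estimated with 3 further striatal arrays, of male Goto-Kakizaki rats of 10 weeks, a strain with spontaneous diabetes. Each array carried RNA pooled from 3 rats, and the 9 rats of a group also gave the hippocampus and the prefrontal cortex. All rats had free access to standard chow. In this model the drug and the diabetes that it causes come together, so that their effects cannot be told apart. P-values here measure the spread between pools of rats, not between rats.

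The striatum is the input nucleus of the basal ganglia. Most of its neurons are medium spiny neurons, inhibitory cells that receive glutamate from the cortex and dopamine from the midbrain, and the rest of the tissue is made up of interneurons, glia and vessels. Streptozotocin is taken up by the beta cells of the pancreas and destroys them, so that insulin is lacking and blood sugar and ketone bodies rise. The brain takes up glucose largely without insulin, although insulin receptors are present on neurons. The study regarded the striatum as a region in which no action of insulin was presumed, and the comparison asks which transcripts of this region differ after 4 weeks of insulin deficiency.

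A level here is the log2 of the background-corrected signal of a probe minus the log2 of the 75th percentile of its array, so that 0 marks the 75th percentile and each unit is a doubling. Of 41012 probes, 30386 were tested, namely those well above background on 2 or 3 arrays of one group or the other. A probe is called higher or lower at an adjusted p under 0.05 with a change of at least 2-fold (limma, with Benjamini-Hochberg adjustment over all probes tested). Where a probe was above background on no array of one group, its change is given as a lower bound ("at least N-fold"). The bound sets the mean of the brighter group against, on each array of the dimmer group, the higher of the probe's own signal and the lowest signal that was well above background there. All 31 medium spiny neuron genes that were tested, of 33 listed, were well above background on all 6 arrays. Most of them also passed the filter in the hippocampus and the prefrontal cortex, so their detection alone does not identify the striatum. In tissue RNA, fewer cells of a type and less RNA per cell cannot be told apart.

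Control pool 2 stood apart from the other control pools. Across the tested probes its levels correlated with those of control pools 1 and 3 at 0.965 to 0.970, and with those of the 3 streptozotocin pools at 0.979 to 0.981. Control pools 1 and 3 correlated with the streptozotocin pools at 0.974 to 0.983, a range that includes the values of control pool 2. Its likeness to the streptozotocin pools was therefore not unusual among controls, while its likeness to the other controls was low. Control pools 1 and 3 correlated with each other at 0.991 and the streptozotocin pools among themselves at 0.992 to 0.994. The median SD of a probe was 0.142 over the streptozotocin pools and 0.259 over the control pools. It was 0.288 over the Goto-Kakizaki pools, which also enter the estimate of the spread. The streptozotocin pools lay on slides 1, 2 and 3 and the control pools on slides 4, 5 and 6, so slide and treatment cannot be told apart within the striatum. Deviations of striatal control pools 2 and 3 from their group mean correlated at 0.557 and 0.614 with those of prefrontal control pools 2 and 3. Those pools share slides 5 and 6 with them, and pool 1, on different slides in the 2 regions, gave -0.177. The cause was not tested. Whether control pool 2 matches its label could not be checked from the files. Results are given with all 6 pools, and where a call or a direction turned, also without control pool 2.

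The largest changes rest on single oligonucleotide probes, so the sequences of 7 of them are shown as the files write them, all in lower case because no base is singled out. The first 3 belong to S100b and Trim16, the named genes with the largest increase and decrease, and to Ftcd, a neighbour of S100b. The next 2 are the probes with the largest changes to which no gene of the RefSeq table (GRCr8) could be matched, and the last 2 are both probes of Klf7, which changed alike.
S100b (A_43_P15530): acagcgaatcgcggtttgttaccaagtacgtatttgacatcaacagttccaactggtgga
Trim16 (A_44_P251031): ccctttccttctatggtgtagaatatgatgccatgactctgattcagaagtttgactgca
Ftcd (A_44_P992662): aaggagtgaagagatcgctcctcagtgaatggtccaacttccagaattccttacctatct
A_44_P845078: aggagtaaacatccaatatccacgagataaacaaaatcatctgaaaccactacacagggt
A_44_P178671: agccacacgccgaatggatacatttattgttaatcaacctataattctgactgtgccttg
Klf7 (A_44_P439475): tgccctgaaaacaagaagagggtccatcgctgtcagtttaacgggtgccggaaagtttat
Klf7 (A_44_P439473): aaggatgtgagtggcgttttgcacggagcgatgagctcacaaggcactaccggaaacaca

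In the striatum of streptozotocin-treated rats, 35 probes were called higher and 26 lower than in controls, 61 in all or 0.201% of those tested (0.115% higher and 0.0856% lower). The higher probes included 16 genes with a symbol and the lower ones 8 genes. The other 36 probes, 18 in each direction, carry no symbol of the RefSeq table. Fold changes ranged from 2.02 to 50.7. All 61 called probes had 3 streptozotocin values that did not overlap with the 3 control values, as did 22.5% of all probes tested. The median change over all probes tested was -0.03 on the log2 scale. An unadjusted p under 0.05 was reached by 1419 probes with higher signals (4.67%) and 1847 with lower signals (6.08%).

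The number of calls depended on single pools. Without control pool 2, 693 probes were called higher (2.28%) and 1216 lower (4%), 1909 in all (6.28%), and 60 of the 61 calls were among them. Without streptozotocin pool 1, 2 or 3 the count was 31, 25 or 18, and without control pool 1 or 3 it was 32 or 34. All 61 changes kept their direction in the 6 fits that left out a pool, which was fixed beforehand because their groups do not overlap. Across the 6 fits, 15 probes were called every time. Of these, 9 have a symbol, namely S100b, Cdc25a, Ucp3, Ccl6, Vezf1, Ftcd, Chrna5, Ascl3 and Trim16. A further 11 probes were called in 3 to 5 of the 6 fits, 34 in 1 or 2 and 1 in none. Ms4a4a, Cblc, Aoc1 and Cemip2 were called in 2, and Alb, Pcdh7, Klf7, Clec10a, Ceacam4, Selenoi and Tmem241 in 1. The methods' t-test called 273 probes before adjustment and 0 after Benjamini-Hochberg adjustment, with 2858 probes at an unadjusted p under 0.05, where limma gave 3266. With another background correction (normexp on the raw intensities), which moved the median of all probes to -0.27, 1 probe was called and 52 of the 61 kept their direction. An unadjusted p under 0.05 in the same direction was then reached by 30 of the 61, and 31 fell short of it (23 higher and 8 lower). Of the changes, 34 moved by more than 1.5-fold.

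**Figure D1:**
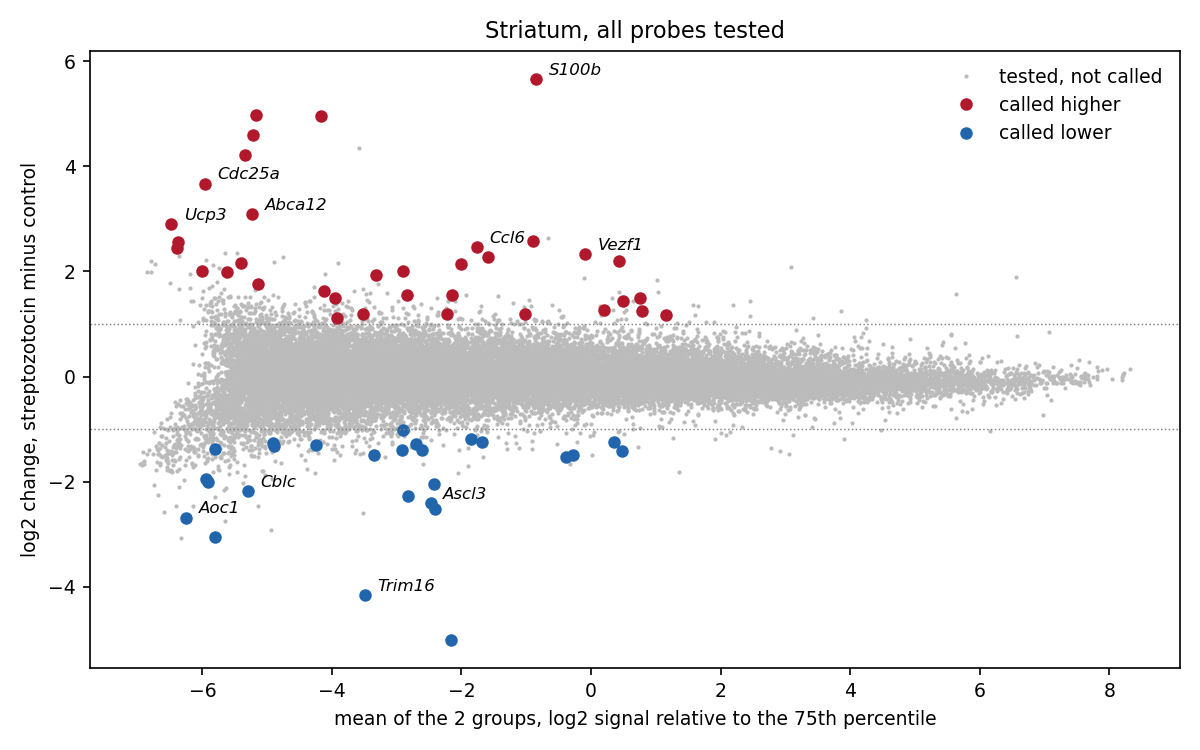
Log2 change of streptozotocin-treated rats minus controls (vertical axis) against the mean level of both groups (horizontal axis, log2 relative to the 75th percentile of the array) for the 30386 probes tested in the striatum, with 3 pools per group and dotted lines at 2-fold. The 35 probes called higher and 26 called lower are large points, and many of them lie at low signals on the left.

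The change of the probe for S100b was the largest of the 61. S100b encodes a calcium-binding protein made mainly by astrocytes and used as an astrocyte marker. Its levels were 1.82, 2.07 and 2.07 in the streptozotocin pools, against -3.90, -3.47 and -3.66 in the control pools. The groups were far apart and the pools of each group close together. The log2 change was 5.66 (standard error 0.23, adjusted p = 1.2e-05), a 50.7-fold difference. Under the normexp correction the log2 change was 4.15 and was not called (adjusted p = 0.18). S100b is abundant in astrocytes, yet its probe averaged -3.67 in controls, well below the 75th percentile. A single probe stood for the gene, and its target was not checked against a transcript sequence. None of the other 14 astrocyte genes was called (lowest adjusted p = 0.44 by limma), beside 0.201% of all probes. Their changes lay between -0.36 and 0.58, and their summed linear signal was 232 to 247 times the 75th percentile in the streptozotocin pools and 194 to 229 times in the control pools. Gfap, the intermediate filament of astrocytes, had a log2 change of 0.11, and Slc1a3, their glutamate transporter, one of 0.35.

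Ftcd, which encodes an enzyme of histidine and folate metabolism, was also higher. Streptozotocin pools had levels of -0.50, -0.26 and -0.60 and control pools -2.80, -2.58 and -2.78. Again the pools of a group were close together, and the log2 change was 2.27 (standard error 0.19, adjusted p = 0.0013). In the RefSeq annotation of GRCr8, S100b and Ftcd lie on chromosome 20 with 7 protein-coding genes between them. No other pair of called genes lay so close, and the next closest, Klf7 and Abca12 on chromosome 9, had 30 genes between them.

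Cell cycle and transcription factors made up the next group. Cdc25a, a phosphatase that activates cyclin-dependent kinases, had levels of -3.98, -4.45 and -3.95 in the streptozotocin pools, and in the control pools -7.98, -7.52 and -7.88. It was above background on all 3 streptozotocin arrays and on 0 of 3 control arrays, which makes it at least 2.79-fold higher (adjusted p = 0.00014). Under the normexp correction its log2 change was 0.07. Vezf1, a zinc finger factor first known from vascular endothelium, reached 1.20, 0.92 and 1.12 after streptozotocin, against -1.16, -1.34 and -1.26 in controls, a log2 change of 2.33 (standard error 0.18, adjusted p = 0.00056). Here all 6 arrays were well above background. Klf7, a Krüppel-like factor of neurons, was called by both of its probes, with log2 changes of 1.26 and 1.25 (adjusted p = 0.023 and 0.047). The first probe gave levels of 0.97, 0.72 and 0.80 in streptozotocin pools and -0.30, -0.31 and -0.68 in control pools, and the second 1.62, 1.30 and 1.32 in streptozotocin pools and 0.31, 0.37 and -0.21 in control pools. This second probe falls outside the rule for named genes and was added after its values were seen, and each probe kept its call in 1 of the 6 fits without a pool.

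**Figure D2:**
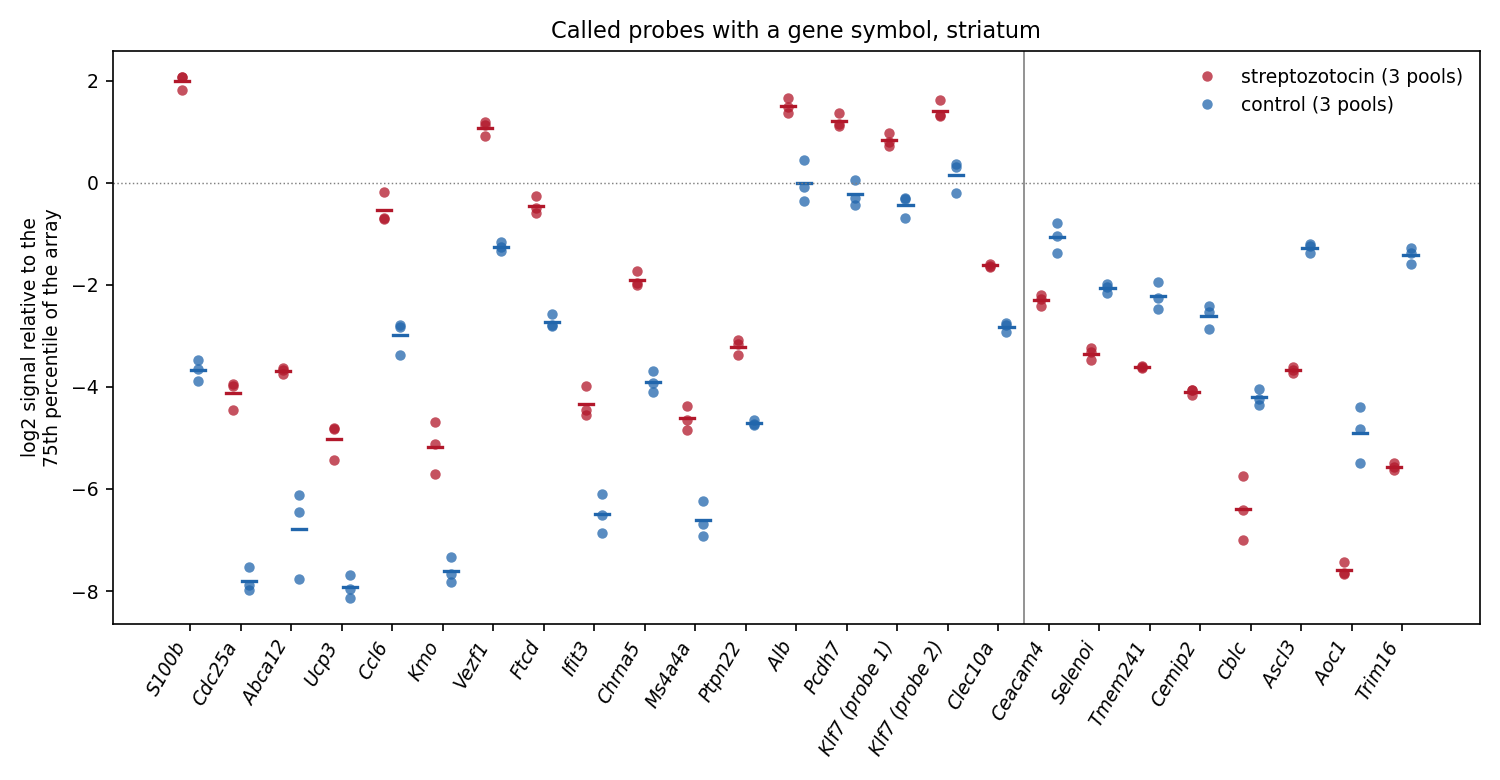
Level of each called probe with a gene symbol (vertical axis, log2 relative to the 75th percentile of the array) in the 3 streptozotocin pools, left, and the 3 control pools, right, with a bar at each group mean. Genes are ordered by log2 change, and those right of the vertical line were lower after streptozotocin. S100b lies at 1.82 to 2.07 in streptozotocin pools and at -3.90 to -3.47 in control pools, and the groups overlap for none of these probes.

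Among genes of metabolism and transport, Ucp3 and Kmo were higher, and neither was well above background in controls. Ucp3, a mitochondrial carrier best known from muscle and brown fat, had levels of -4.83, -5.44 and -4.81 after streptozotocin and -8.13, -7.68 and -7.97 in controls. It was above background on 3 of 3 streptozotocin arrays and on 0 of 3 control arrays and was at least 1.49-fold higher (adjusted p = 0.0013). Kmo, the kynurenine 3-monooxygenase of tryptophan breakdown, was above background on 2 of 3 streptozotocin arrays and on 0 of 3 control arrays. Its levels of -4.69, -5.70 and -5.13 in streptozotocin pools, against -7.83, -7.34 and -7.68 in control pools, made it at least 1.35-fold higher (adjusted p = 0.0078). Under the normexp correction the log2 changes of Ucp3 and Kmo were -0.32 and -0.42, with neither called. The median of all probes was -0.27 under that correction. Abca12, a lipid transporter known from skin, was at least 3.78-fold higher (adjusted p = 0.017), with levels of -3.68, -3.62 and -3.76 in streptozotocin pools, against -6.46, -6.12 and -7.76 in control pools. Under the normexp correction its log2 change was 0.13, and its call was lost in 3 of the 6 fits that left out a pool.

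Alb, the gene of serum albumin, had a log2 change of 1.49 (standard error 0.23, adjusted p = 0.037) by the probe A_44_P1017367. Levels were 1.47, 1.66 and 1.36 with streptozotocin and -0.08, 0.44 and -0.36 in controls. The 2 other probes of Alb were above background on none of the 6 arrays and were not tested, so that the change rests on 1 of 3 probes. That call was kept in 1 of the 6 fits that left out a pool.

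Immune and macrophage genes were among the higher ones. Ccl6, a rodent chemokine of macrophages and neutrophils, had levels of -0.70, -0.18 and -0.70 in streptozotocin pools, against -2.79, -2.82 and -3.37 in control pools, a log2 change of 2.47 (standard error 0.23, adjusted p = 0.0020). Ifit3, an antiviral gene induced by interferon, was above background on 3 of 3 streptozotocin arrays and on 0 of 3 control arrays. Its levels were -4.46, -4.55 and -3.99 in streptozotocin pools, against -6.10, -6.86 and -6.50 in control pools, at least 2.42-fold higher (adjusted p = 0.010). Ms4a4a, a membrane protein of macrophages, was at least 1.98-fold higher (adjusted p = 0.028), with 3 of 3 streptozotocin arrays and 0 of 3 control arrays above background. Under the normexp correction Ifit3 and Ms4a4a had changes of -0.30 and -0.46, with neither called, where the median of all probes was -0.27. Ptpn22, a phosphatase that restrains signalling in lymphocytes, had levels of -3.38, -3.16 and -3.09 after streptozotocin and -4.75, -4.72 and -4.65 in controls (log2 change 1.49, adjusted p = 0.0090). Its change under normexp was 0.00063. Clec10a, a lectin of macrophages that falls outside the rule for named genes and was added after its values were seen, had a log2 change of 1.20 (adjusted p = 0.035), and of 0.44 under normexp.

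Beside these, genes that mark microglia and macrophages in general were not called in either direction (0 of 18 tested, beside 0.201% of all probes). Their median log2 change was 0.26, and 0.08 without control pool 2. Their summed linear signal was 96.2 to 115 times the 75th percentile in streptozotocin pools and 84.9 to 93.0 times in control pools. Mrc1, the mannose receptor of macrophages at brain borders, had a log2 change of 1.24 (adjusted p = 0.17), and the complement genes C1qb and C1qc had 0.62 and 0.71. Aif1, the common marker of microglia, had -0.05, Ptprc, the CD45 antigen of leukocytes, -0.02, and Cd74, which assists class II antigen presentation, -0.64. The part of these cells in the changes of Ccl6, Ms4a4a and Clec10a was not tested.

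A receptor subunit and an adhesion molecule of neuronal membranes were also higher. Chrna5, a subunit of nicotinic acetylcholine receptors, had levels of -1.73, -2.00 and -1.97 in streptozotocin pools and -3.92, -3.69 and -4.09 in control pools, a log2 change of 2.00 (standard error 0.18, adjusted p = 0.0020). Pcdh7, a protocadherin of cell adhesion, reached 1.37, 1.11 and 1.15 with streptozotocin, against 0.06, -0.44 and -0.31 in controls (log2 change 1.44, adjusted p = 0.035). The call of Pcdh7 was kept in 1 of the 6 fits without a pool, that of Chrna5 in all 6, although the change of Chrna5 under normexp was 0.68.

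Trim16 changed most among the lower genes. Its product, a tripartite motif protein that attaches ubiquitin to other proteins, takes part in the handling of damaged membranes and misfolded proteins. The probe shown above had levels of -5.63, -5.57 and -5.49 in streptozotocin pools, against -1.59, -1.28 and -1.38 in control pools. It was above background on 0 of 3 streptozotocin arrays and on 3 of 3 control arrays, at least 17.5-fold lower (adjusted p = 4.1e-05). A second probe of Trim16 was above background on none of the 6 arrays and was not tested.

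The other lower genes were enzymes, a transcription factor and membrane proteins. Ascl3, a basic helix-loop-helix factor known from ducts of salivary glands, had levels of -3.67, -3.74 and -3.62 after streptozotocin and -1.24, -1.21 and -1.38 in controls, a log2 change of -2.40 (standard error 0.20, adjusted p = 0.0013). Aoc1, the diamine oxidase that breaks down histamine and polyamines, was above background on 0 of 3 streptozotocin arrays and on 3 of 3 control arrays. Levels of -7.65, -7.67 and -7.44 in streptozotocin pools, against -5.50, -4.40 and -4.83 in control pools, made it at least 1.57-fold lower (adjusted p = 0.023). Cblc, a ubiquitin ligase of the Cbl family that acts on receptor tyrosine kinases, was at least 2.54-fold lower (adjusted p = 0.024), again with 0 of 3 streptozotocin and 3 of 3 control arrays above background, and its second probe was not above background on any array.

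Selenoi, which makes the membrane lipid phosphatidylethanolamine, had a log2 change of -1.29 (adjusted p = 0.017), with levels of -3.31, -3.25 and -3.48 in streptozotocin pools, against -2.15, -1.98 and -2.04 in control pools. For Tmem241, a transmembrane protein, the log2 change was -1.39 (adjusted p = 0.025). Probes of the other 2 genes did not all give the same result. One probe of Cemip2, a membrane protein that takes part in the turnover of hyaluronan, had a log2 change of -1.48 (adjusted p = 0.0090), and the other -0.17 (adjusted p = 0.80). Ceacam4, a cell adhesion molecule, had -1.24 (adjusted p = 0.038) and -1.28 (adjusted p = 0.080) by its probes, and the second of them ranged from -0.26 to 0.53 over the control pools.

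Several probes without a symbol changed as much as the genes above. The probe A_44_P845078 had levels of -2.86, -2.31 and -2.89 in streptozotocin pools and -7.84, -7.37 and -7.77 in control pools, with 3 of 3 streptozotocin and 0 of 3 control arrays above background, and was at least 7.57-fold higher. The probe A_44_P901064 had -1.88, -1.25 and -1.94 after streptozotocin and -6.82, -5.16 and -7.94 in controls, where 1 of 3 arrays was above background. Its log2 change of 4.95 ran from 4.30 to 5.69 without single pools, was called in 2 of those 6 fits and was 1.59 under normexp. Of the lower ones, A_44_P178671 had levels of -4.88, -4.89 and -4.19 after streptozotocin, against 0.06, 0.35 and 0.63 in controls, a log2 change of -5.00 (adjusted p = 2.4e-05) with all 6 arrays above background. A_44_P553280 was at least 2.42-fold lower. These 4 probes, the largest in each direction without a symbol, were chosen after their values were seen, and no gene of the RefSeq table could be matched to them.

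Insulin is the hormone that streptozotocin-treated rats lack, and its own transcripts and receptor were measured on the array. Ins1 had levels of -1.70, -2.27 and -1.99 in streptozotocin pools and -1.94, -1.51 and -2.24 in control pools, which overlap (log2 change -0.09, adjusted p = 0.90). For Ins2 the values were -3.08, -3.36 and -3.38 in streptozotocin pools, against -4.18, -2.97 and -4.04 in control pools, and overlapped as well (0.46, adjusted p = 0.60). The overlap of Ins2 came from control pool 2, without which the change was 0.84 (adjusted p = 0.023), under the 2-fold limit. Insr, the insulin receptor, had a log2 change of -0.14 (standard error 0.17, adjusted p = 0.78) and was above background on 1 of 3 streptozotocin arrays and 2 of 3 control arrays. Igf1r, the receptor of insulin-like growth factor 1, had -0.20 (standard error 0.21), and Irs2, an adaptor downstream of both, -0.26 (standard error 0.22). Slc2a1, the glucose transporter of the blood-brain barrier and astrocytes, was at 4.27, 4.25 and 4.55 in streptozotocin pools and 4.32, 4.85 and 4.09 in control pools (-0.06, standard error 0.22). The adaptor Irs1 was above background on none of the 27 arrays and was not tested.

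Over whole lists of insulin and energy metabolism, few genes were called. Of all probes tested, 0.201% were called with all 6 pools. Of 39 genes of insulin and insulin-like growth factor signalling, 38 were tested and 0 called, with a median log2 change of -0.04, where all probes had -0.03. Igf2, a growth factor of the meninges, had -0.59 (adjusted p = 0.40). G6pc1, the glucose 6-phosphatase of liver, was above background on 0 of 3 streptozotocin arrays and 2 of 3 control arrays, at least 1.39-fold lower (adjusted p = 0.40). Without control pool 2, 2 genes of this list were called lower, where 4% of all probes tested were. They are G6pc1 (adjusted p = 0.0049) and Socs3, a feedback inhibitor of cytokine signals. The change of Socs3 was then -1.35 (adjusted p = 0.0025), against -0.71 with all pools (adjusted p = 0.58). Over the 24 lists, 9 of 444 genes were called in that fit, beside 6.28% of all probes tested. The 31 genes tested of glucose transport and glycolysis had a median of -0.03 (0.06 without control pool 2) and 0 calls. Pdk1, a kinase that turns off pyruvate dehydrogenase, had the smallest p among them (-0.69, adjusted p = 0.295). Fatty acid oxidation and ketone body genes had a median of 0.03 over 26 genes, and 1 of them, Ucp3, was called higher (2 genes without control pool 2). Ppargc1a, a coactivator of mitochondrial genes, had a log2 change of 0.96 (adjusted p = 0.30). The antioxidant genes had a median of -0.05, and 0.05 without control pool 2 (0 of 23 called), and the heat shock genes one of -0.17 (0 of 18 called).

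Interferon-stimulated and antigen presentation genes had the highest median of the 24 lists. Their median log2 change was 0.55 over 24 genes tested of 26, with 1 gene, Ifit3, called higher and 0 lower. An unadjusted p under 0.05 was reached by 9 genes with higher signals and 1 with a lower signal. Over all probes tested, 4.67% had higher and 6.08% lower signals at that limit. Oas1a, an antiviral enzyme, had levels of 1.39, 0.87 and 1.98 in streptozotocin pools, against 0.29, -0.01 and -0.02 in control pools (log2 change 1.32, adjusted p = 0.24). Isg15, a ubiquitin-like protein, had 0.86, 0.44 and 1.62 in streptozotocin pools, against 0.04, -0.62 and -0.31 in control pools (1.27, adjusted p = 0.25). In both genes streptozotocin pool 3 was the highest and pool 2 the lowest of its group. RT1-Da, a class II antigen, had -0.89 (adjusted p = 0.33). Relative to each gene's mean over the 6 arrays, the list's median was 0.22, 0.00 and 0.52 in streptozotocin pools 1, 2 and 3 and -0.16, -0.42 and -0.34 in control pools 1, 2 and 3. Without control pool 2 the striatal median was 0.47. The same list had a median of 0.31 in hippocampal arrays and 0.16 in those of the prefrontal cortex.

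Cholesterol synthesis genes had the lowest median. It was -0.39 over 21 genes tested of 23, with 0 called, 6 with a lower and 1 with a higher signal at an unadjusted p under 0.05. Over all probes tested, 6.08% had lower and 4.67% higher signals at that limit. Fdft1, the squalene synthase, had levels of -0.37, -0.39 and -0.29 in streptozotocin pools and 0.25, 0.52 and 0.42 in control pools (log2 change -0.75, adjusted p = 0.24). For Sqle and Msmo1, later enzymes of the pathway, the changes were -0.50 and -0.53. Lss, the lanosterol synthase, had 0.52 (adjusted p = 0.39) and Nsdhl 0.11, the only members tested with positive values. By pool, the list's median relative to each gene's mean was -0.25, -0.10 and -0.17 with streptozotocin and 0.12, 0.33 and 0.05 in controls. It was -0.31 without control pool 2, -0.08 for the hippocampus and -0.00 for the prefrontal cortex. Beside it, oligodendrocyte and myelin genes, whose cells make much of the cholesterol of the brain, had a median of -0.24 (0 of 18 called). Their summed linear signal was 407 to 445 times the 75th percentile in streptozotocin pools and 476 to 512 times in control pools, and their part in the values of the cholesterol genes was not tested.

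**Figure D3:**
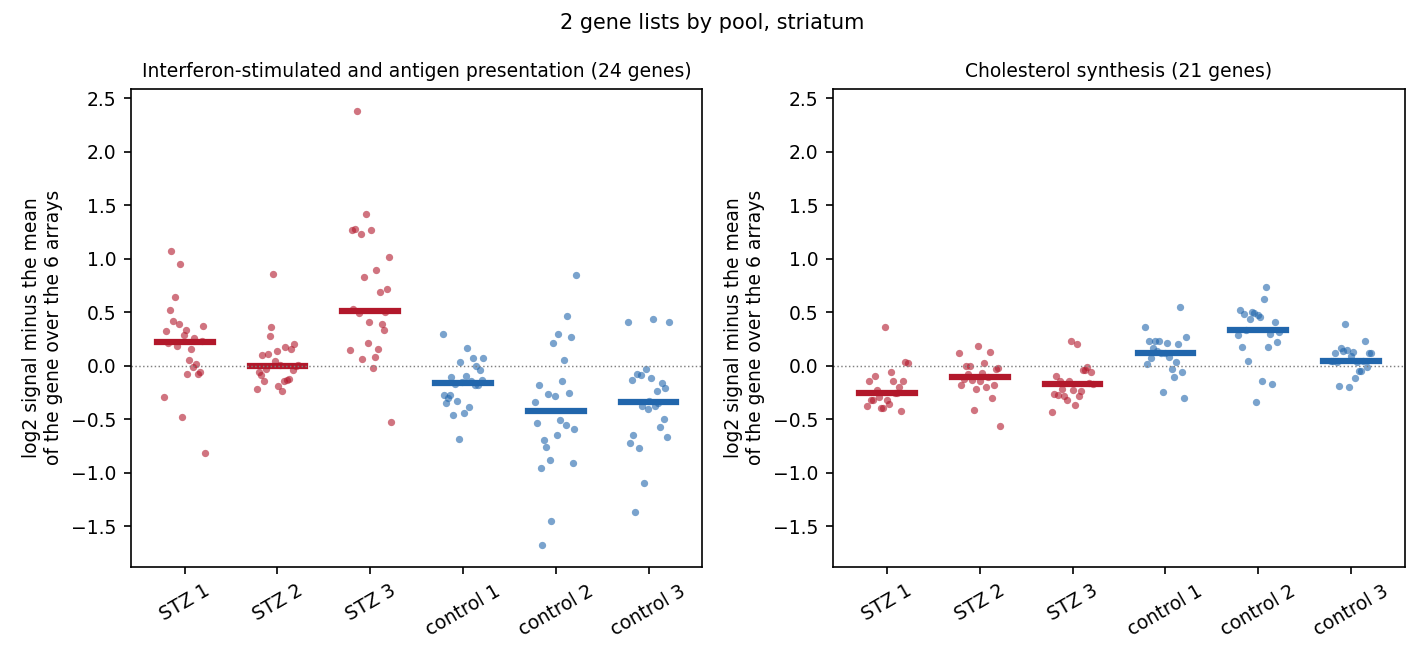
Level of each tested gene minus its mean over the 6 arrays (vertical axis, log2) in the 3 streptozotocin pools, left, and the 3 control pools, right, for 24 interferon-stimulated and antigen presentation genes and 21 cholesterol synthesis genes. Thick lines are medians, which are 0.22, 0.00 and 0.52 in streptozotocin pools and -0.16, -0.42 and -0.34 in control pools for the interferon list.

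No gene of the neuronal lists was called, with all 6 pools or without control pool 2. Over all probes tested, 0.201% were called with all 6 pools and 6.28% without control pool 2. At a share of 0.201%, 0 calls in a list of this size say little about its genes. Medium spiny neuron genes had a median log2 change of -0.09 (0 of 31 called), dopamine synthesis and transport genes one of -0.09, which turned to 0.04 without control pool 2 (0 of 9), and interneuron genes one of 0.11 (0 of 15). Th, the tyrosine hydroxylase of dopamine synthesis, had a change of -0.69 (adjusted p = 0.44), and Ddc, the next enzyme of the pathway, one of -0.96 (adjusted p = 0.17). Without control pool 2 these changes were -0.97 (adjusted p = 0.041) and -0.83 (adjusted p = 0.050), under the 2-fold limit, as was that of Grm2, a metabotropic glutamate receptor (0.98, adjusted p = 0.027). Slc5a7, the choline transporter of cholinergic interneurons, had 1.03 (adjusted p = 0.26). Glutamate and GABA receptor genes had medians of 0.19 (0 of 22) and 0.18 (0 of 14). Cortical projection neuron genes had 0.02 (0 of 10) and thalamic, septal and hypothalamic genes -0.10 (0 of 14), so no marker of the neighbouring regions was called. Immediate early genes had -0.21, and -0.06 without control pool 2 (0 of 19 called), glucocorticoid-responsive genes -0.11, and 0.02 without that pool (0 of 21), and circadian clock genes 0.13 (0 of 18). Hif3a, a hypoxia-inducible factor of the glucocorticoid list, was called lower without control pool 2 (-1.11, adjusted p = 0.0035), as were 4% of all probes tested. With all pools Hif3a had -0.61 (adjusted p = 0.55).

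Lists of vessels, blood and linings gave no calls with all 6 pools, where 0.201% of all probes tested were called. The medians were -0.10 for endothelial and barrier genes (0 of 16), -0.29 for meningeal and mural cell genes (0 of 12), -0.12 for blood cell genes (0 of 8) and 0.14 for choroid plexus and ependymal genes (0 of 11). Without control pool 2, Cdh5, the cadherin of endothelial junctions, was called higher (1.13, adjusted p = 0.031), as was Myh11, the myosin of smooth muscle (1.13, adjusted p = 0.0052). All pools gave 0.68 (adjusted p = 0.54) and 0.74 (adjusted p = 0.42). Of all probes tested, 2.28% were called higher without control pool 2. S100a8, a calcium-binding protein of neutrophils, had a change of 1.30 (adjusted p = 0.31). The summed linear signal of the choroid plexus list was 14.2 to 31.8 times the 75th percentile in streptozotocin pools and 14.2 to 18.7 times in control pools.

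**Figure D4:**
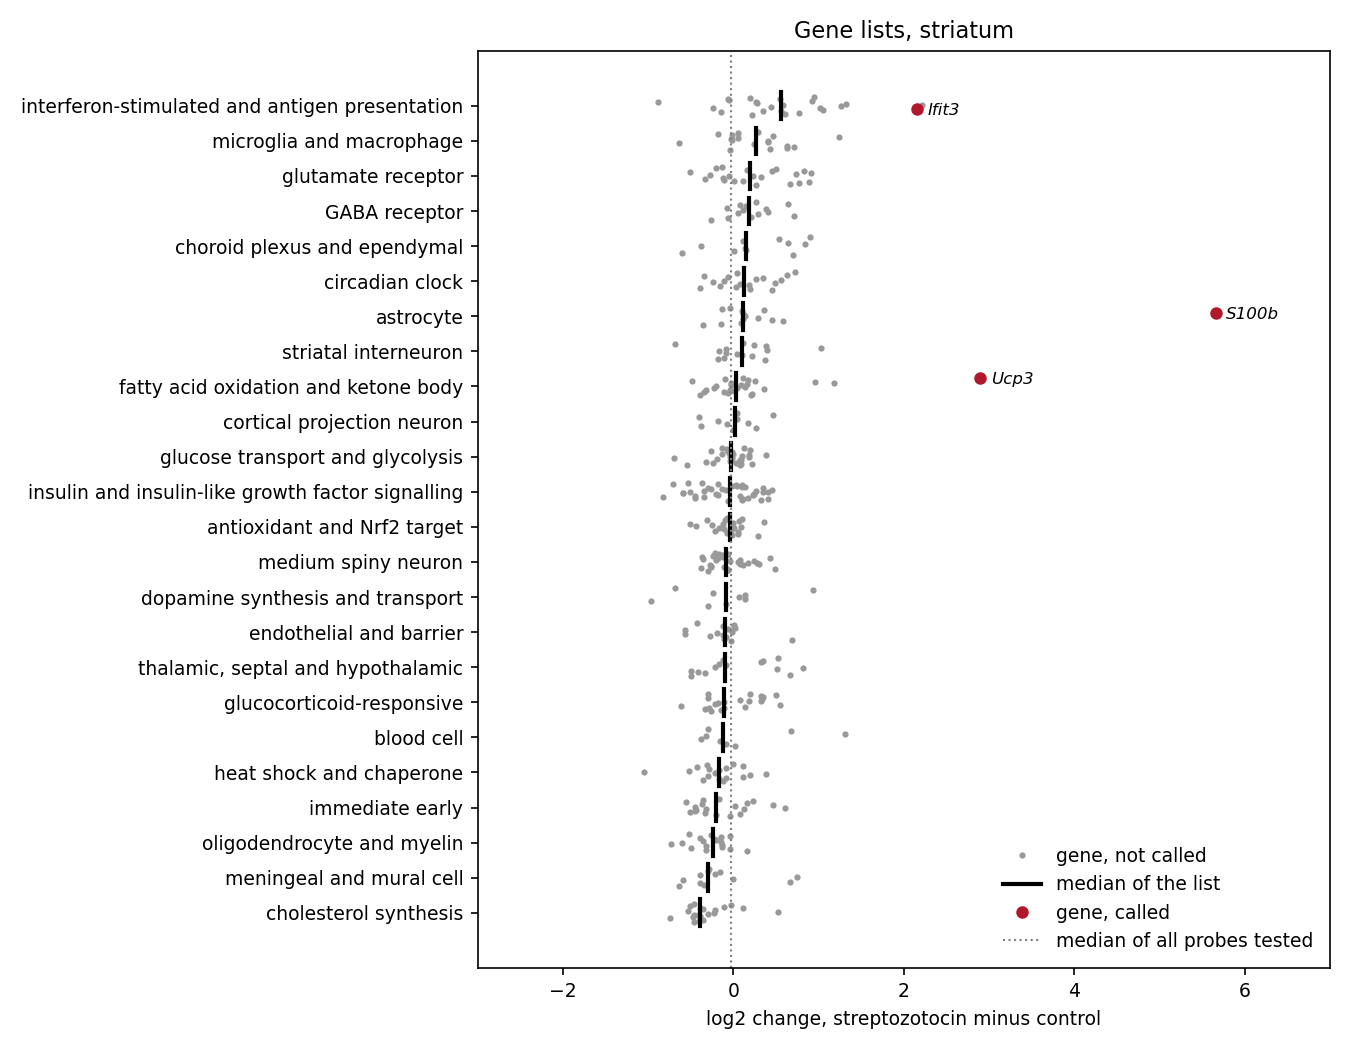
Log2 change of streptozotocin-treated rats minus controls (horizontal axis) for the tested genes of 24 lists (vertical axis), ordered by their median (black bars), with the median of all probes tested as a dotted line. The medians run from 0.55 for the interferon list to -0.39 for cholesterol synthesis, and Ifit3, S100b and Ucp3 (large points) are the 3 called members.

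The same comparison in the hippocampus and the prefrontal cortex shows whether the striatal changes occurred elsewhere in the brains of these rats. The regions come from the same animals, so they are not independent of each other, but each has its own control arrays. In the hippocampus 0.816% of the probes tested were called, 0.505% higher and 0.311% lower. In the prefrontal cortex, 0.572% were called, 0.242% higher and 0.33% lower, which is 175 probes, or 101 when arrays of equal number, which share a slide there, were paired. Of the 35 probes called higher in the striatum, 32 were tested in the hippocampus and 21 of them were called higher there, and 31 were tested in the prefrontal cortex with 20 called higher. Of the 26 called lower, 13 of 24 were called lower in the hippocampus and 14 of 24 in the prefrontal cortex. None was called in the opposite direction. In all, 54 of the 61 were tested in both other regions, and 29 were called in both with the same sign. The share of all probes called in both regions was not computed, so only the shares of single regions stand beside this count.

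S100b had levels of 1.47, 1.94 and 1.70 in the hippocampus of streptozotocin-treated rats and -4.43, -4.37 and -4.38 in that of controls. In the prefrontal cortex they were 1.54, 1.48 and 1.79 after streptozotocin, against -4.44, -4.41 and -3.66 in controls. All 9 streptozotocin arrays of the 3 regions were therefore far above all 9 control arrays, with log2 changes of 6.10 (hippocampus) and 5.77 (prefrontal cortex) beside 5.66 in the striatum. Trim16 was low in every region, its log2 change being -3.39 for hippocampal and -3.79 for prefrontal arrays. Cdc25a, not above background in controls of either region, was higher after streptozotocin by at least 2.93-fold (hippocampus) and 2.96-fold (prefrontal cortex). Ucp3 was higher by at least 3.17-fold in hippocampal arrays, and its prefrontal log2 change was 2.76, with 2 of 3 prefrontal control arrays above background. Vezf1 had 1.85 and 2.01, Ccl6 2.25 and 1.84, and Ascl3 -2.53 and -2.13, and these 5 genes were called in both regions. Ftcd was called in both as well, at 1.17 (hippocampus) and 1.86 (prefrontal cortex).

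In the prefrontal cortex each of slides 5, 6 and 7 carried 1 streptozotocin and 1 control array, so that differences could be taken within a slide. Of the 61 probes called in the striatum, 55 were tested in the prefrontal cortex, and 52 of them differed within all 3 slides in the direction they had in the striatum, as did 28.3% of all probes tested in both regions. For S100b the differences were 5.89, 5.46 and 5.98 on slides 5, 6 and 7. They were -3.54, -4.07 and -3.75 for Trim16, 1.67, 2.24 and 2.13 for Vezf1, and 1.71, 2.00 and 1.88 for Ftcd.

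Some striatal calls were not made in the other regions. Klf7 had log2 changes of -0.20 and -0.28 by its probes in the hippocampus (adjusted p = 0.57 and 0.36) and 0.91 and 0.88 in the prefrontal cortex (adjusted p = 0.037 and 0.028), under the 2-fold limit. Pcdh7 had -0.37 in the hippocampus (adjusted p = 0.42) and 0.97 in the prefrontal cortex (adjusted p = 0.042), also under that limit, and Clec10a 0.59 (hippocampus) and 0.04 (prefrontal cortex). The difference between regions was then tested itself. For striatum minus hippocampus it did not pass for Klf7 (adjusted p = 0.060 and 0.057), Pcdh7 (0.067) or Ftcd (0.051). Of the called probes that were tested in both regions none passed. Aoc1 met the threshold, but it was above background on none of the 6 hippocampal arrays and none of the 3 striatal streptozotocin arrays, so no difference between regions is given for it. Over all probes, 11 (0.0362%) had a more positive and 14 (0.0461%) a more negative effect in the striatum than in the hippocampus by this test, 0.0823% of those tested. Of these 25, 20 were above background on at least 2 arrays of each of the 4 groups. With replicate numbers as a block the test called 0, and likewise 0 under normexp. In the hippocampus the streptozotocin arrays lay on slides 5, 6 and 7 and the control arrays on slides 1 and 2. Slide and treatment therefore cannot be told apart in either the striatum or the hippocampus, nor in the difference between them. For striatum minus prefrontal cortex limma called 0 probes, with 2230 at an unadjusted p under 0.05.

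**Figure D5:**
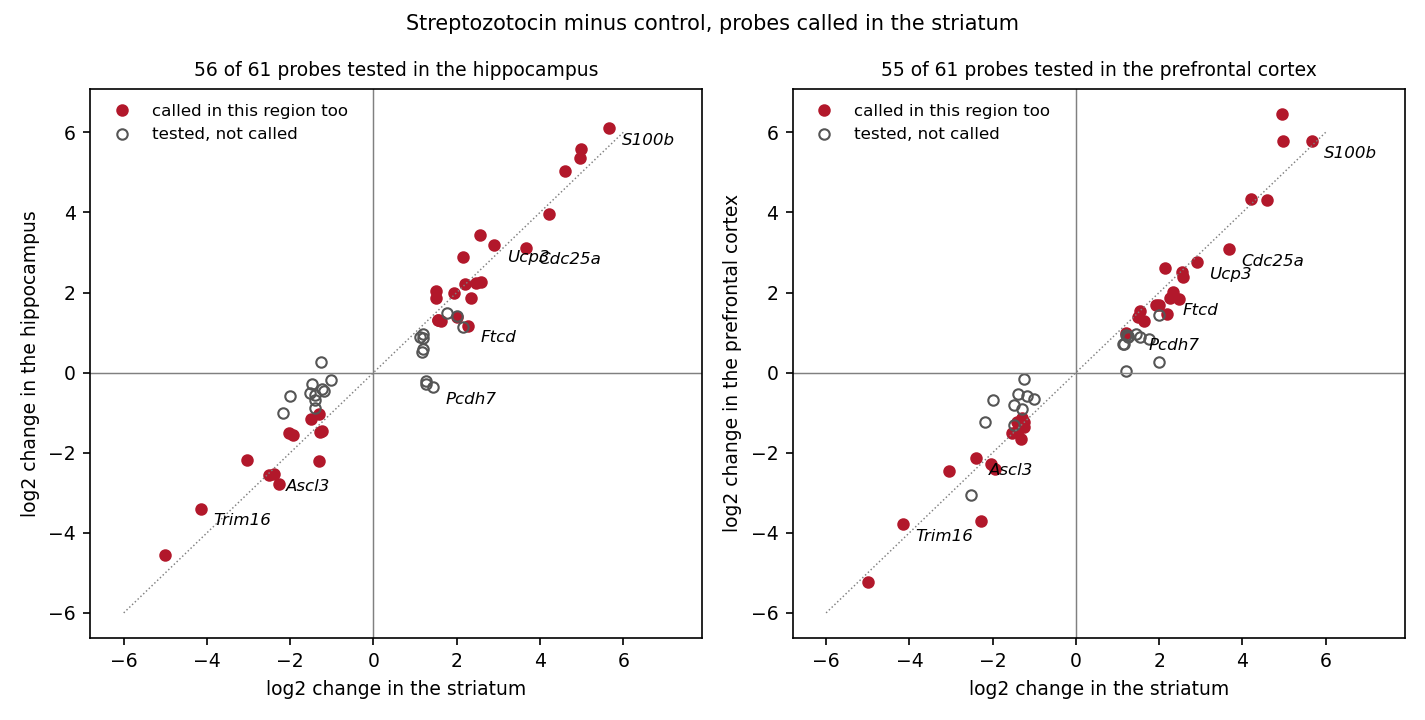
Log2 change of streptozotocin-treated rats minus controls in the striatum (horizontal axes) and in the hippocampus or the prefrontal cortex (vertical axes) for the probes called in the striatum, with a dotted line where both are equal and 3 pools per group. Filled points were called there too (hippocampus: 21 higher and 13 lower; prefrontal cortex: 20 and 14), and S100b and Trim16 lie near the dotted line in both. Where a probe was above background in 1 group only, the measured difference is plotted, and the text gives its bound.

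Goto-Kakizaki rats, the strain with spontaneous diabetes, were compared in the striatum with the same 3 control arrays, so their values are set beside those of streptozotocin-treated rats without a test of likeness. S100b had a log2 change of 5.66 in streptozotocin-treated rats and -0.09 in Goto-Kakizaki rats, whose levels of -4.12, -3.31 and -3.88 overlapped with the control levels. Cdc25a and Ucp3, at least 2.79-fold and 1.49-fold higher in streptozotocin-treated rats, were above background on 0 of 3 Goto-Kakizaki arrays and 0 of 3 control arrays, so no fold is given there. Chrna5 had log2 changes of 2.00 in streptozotocin-treated and -0.49 in Goto-Kakizaki rats, Ftcd 2.27 and 2.50, and Ascl3 -2.40 and -2.03. Trim16 was at least 17.5-fold lower in streptozotocin-treated rats, and in Goto-Kakizaki rats, with 2 of 3 arrays above background, its log2 change was -3.77. Ifit3 was at least 2.42-fold higher in streptozotocin-treated and at least 3.10-fold higher in Goto-Kakizaki rats, and Kmo at least 1.35-fold and at least 2.04-fold. A high or low level in the shared control arrays would appear in both values of such a pair.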

How the data were processed

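RNA of 27 pools of 3 rats was measured on single-colour Agilent arrays. The authors extracted the spots with Feature Extraction 9.1 (per the submitters' processing notes) and deposited the processed signal intensity, corrected for background but not scaled between arrays, with raw mean and background intensities. The deposited value table holds the same intensity and served as an alternative. Further filtering and normalization of the methods were not used here. Log2 intensities were taken relative to the 75th percentile of each array (969 to 1354 on the 6 striatal arrays), and outlier spots (16 to 144 per array) were left out. On these arrays 68.5% to 74.2% of the probes were well above background, and no spot was saturated. The number of arrays limits the precision.

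A linear model with 3 group means was fitted to the 9 striatal arrays with limma 3.58.1 in R 4.3.3, with 6 residual and 3.74 prior degrees of freedom. The Goto-Kakizaki arrays enter only the estimate of the spread. The hippocampus and the prefrontal cortex were fitted likewise, and differences between regions over 12 arrays. Figures were drawn with Python 3.11.15, pandas 2.3.3 and matplotlib 3.10.9. The fit was tested on simulated data. Probes were named through accessions, symbols and synonyms of the RefSeq annotation (GRCr8), in which 20035 of 41012 matched a gene and 20977 did not. Named genes are the up to 15 largest increases and decreases among called probes with a symbol and groups that do not overlap, up to 4 called genes of each list (otherwise the 2 with the smallest p), and 7 genes of insulin signalling and glucose uptake. Other list members named in the text (such as Ppargc1a, Oas1a, Isg15, Sqle, Lss and Gfap) were added after their values were seen. In a list, each gene was represented by its brightest tested probe. The 6 arrays, the 24 gene lists and the rule were chosen with earlier results of these data known.

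Equal replicate numbers of streptozotocin and control pools were checked for pairing by the correlation of their deviations from the group means. It was 0.03, 0.04 and -0.04 in the striatum, so that numbers do not pair the pools there. In the prefrontal cortex it was 0.50, 0.48 and 0.73, where equal numbers lie on 1 slide. Alternatives changed the scaling, background correction, filter, arrays in the fit, test, block, weights and pools, 1 at a time, except that the slide alternatives also needed all 27 arrays, since each striatal slide of these groups holds 1 group. An alternative with equal group and number as a block across regions was added after the data were seen. Some members of the lists are not reported here.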

Additional observations from a re-analysis of the deposited data

Results flagged for a closer look

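A test of the difference in streptozotocin effect between the striatum and the hippocampus called 25 probes (limma, adjusted p under 0.05 and at least 2-fold). Of these, 11 had a more positive and 14 a more negative effect in the striatum. Hippocampal streptozotocin arrays lay on slides 5, 6 and 7 and hippocampal control arrays on slides 1 and 2. Slide and treatment are thus confounded in both regions, and the difference cannot be told apart from one between slides. Oprk1, the kappa opioid receptor, had log2 changes of 0.51 in the striatum and -1.02 in the hippocampus, a difference of 1.52 (standard error 0.21, adjusted p = 0.038). Unc13c, which primes synaptic vesicles, had 0.64 in the striatum and -0.99 in the hippocampus, and Syn1, a protein of synaptic vesicles, 0.27 and -0.98. Akap3, a scaffold of protein kinase A, had -0.42 in the striatum and 1.17 in the hippocampus, a difference of -1.59 (adjusted p = 0.038). Of these genes none was called within the striatum, and they were chosen after their values were seen. The count of 25 was 280 without striatal control pool 1, 247 without striatal control pool 2, and between 0 and 5 without any other single pool. The regions come from the same rats, and the count was 0 with replicate numbers as a block, within regions (5433 probes at an unadjusted p under 0.05) or across them (5196), and 0 under the normexp correction (2425).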

How the results depend on the processing

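The 61 probes called in the striatum became 271 over all 27 arrays and, over those 27 arrays, 271 with slide as a random block and 185 with slide as a fixed covariate. They became 1968 with array weights, which were lowest for Goto-Kakizaki pool 2 (0.121) and control pool 2 (0.145). The count was 27 with both groups alone, 273 or 0 with the methods' t-test before or after adjustment, and 1 with normexp. Leaving out 1 pool gave 18 to 1909. The scaling, value table, filter, fold threshold, outlier and robust alternatives gave 51 to 69. Under normexp the median of all probes was -0.27. The log2 changes of Ucp3 (-0.32), Kmo (-0.42), Ifit3 (-0.30) and Ms4a4a (-0.46) were then below 0, with none called. Those of Cdc25a (0.07), Abca12 (0.13) and Ptpn22 (0.00063) came near 0. The cause was not tested.

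Replicate numbers do not pair the striatal pools; a replicate block gave 26 calls there, 24 of them among the 61, and 220 in the hippocampus. It gave 101 in the prefrontal cortex, where equal numbers share a slide, and 0 for both differences between regions. A block of equal group and number across regions, chosen after seeing the data, gave 0 for both too.

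For the hippocampus, 249 calls became 109 with normexp and 197 to 290 without 1 pool. For the prefrontal cortex, 175 became 13 with normexp, 303 over all arrays and 35 to 159 without 1 pool. For striatum minus hippocampus, 25 became 101 at the 50th percentile, 0 with normexp, 240 over all arrays and 0 to 280 without 1 pool. For striatum minus prefrontal cortex, 0 became 0 to 6 without 1 pool. Signals near background limit 12 higher and 9 lower calls to bounds.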
